A study of Mus musculus with 2 samples.

Results

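The CXC chemokines described here are 9 genes, Cxcl1, Cxcl2, Cxcl5, Cxcl9, Cxcl10, Cxcl12, Cxcl13, Cxcl14 and Cxcl16, taken by symbol from the 31053 genes listed in the count tables of both libraries. They were followed in 1026 cells, 396 of the THC library and 630 of the vehicle library, each with at least 1000 unique molecular identifiers (UMIs, which count captured RNA molecules), at least 200 genes and under 10% mitochondrial UMIs. The members were chosen by name, and selected on their UMI counts by class and library in these same cells, so the values below are a description and carry no test.

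The libraries came from the colons of C57BL/6 wild-type mice. In the THC group Δ9-tetrahydrocannabinol (THC), the main psychoactive compound of cannabis and a ligand of the cannabinoid receptors, was given at 10 mg/kg, and the control animals received vehicle. Tissue in both groups was digested to free the lamina propria, which was enriched on a density gradient, and RNA was captured per cell with a 5′ droplet kit. How many mice made each library, their sex, age, route and schedule of dosing were not given in the sources used here, and with 1 library per group nothing could be set against the variation between animals.

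CXC chemokines are small secreted proteins that guide leukocytes through G protein-coupled receptors. Cxcl1, Cxcl2 and Cxcl5 attract neutrophils through Cxcr2, and the interferon-induced Cxcl9 and Cxcl10 attract T cells through Cxcr3. Cxcl12 retains and guides cells through Cxcr4 and is scavenged by Ackr3, Cxcl13 brings B cells into follicles through Cxcr5, Cxcl16 is made as a membrane protein and binds Cxcr6, and the receptor of Cxcl14 is less well defined. In the gut wall, stromal cells, resident macrophages and epithelium all make members of the family.

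Most members lie on chromosome 5. In the RefSeq annotation of GRCm38.p6, Cxcl5, Ppbp, Pf4, Cxcl3, Cxcl15, Cxcl1 and Cxcl2 follow one another there as neighbouring coding genes. Sorted by lowest coordinate, Art3 comes between Cxcl9 and Cxcl10. Cxcl13 is on the same chromosome, while Cxcl12 is on chromosome 6, Cxcl14 on chromosome 13 and Cxcl16 on chromosome 11. In the GENCODE M21 annotation Cxcl10 overlaps Art3, on the opposite strand, and Cxcl16 overlaps Zmynd15, also on the opposite strand. Use of strand in the counting was not given in the sources used here. Art3 had 152 THC and 172 vehicle UMIs and Zmynd15 had 29 and 52.

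The 250 bases before the start of a gene are shown for 4 members, because those of Cxcl1, Cxcl2 and Cxcl10 held the most matches to the NF-kappaB form described here, while that of Cxcl12, the member of most fibroblasts, held none. The sequences are RefSeq's for GRCm38.p6, 5′ to 3′ on the gene's strand, and the count tables' own build was not given in the sources used here. These windows lie at chr5:90890995-90891244 on the plus strand for Cxcl1, chr5:90903649-90903898 on the plus strand for Cxcl2, chr5:92348890-92349139 on the minus strand for Cxcl10 and chr6:117168285-117168534 on the plus strand for Cxcl12. Capitals mark matches, on either strand, to a form of the NF-kappaB motif (GGG and TNCC with 3 bases of any kind between them) and to a form of the interferon-stimulated response element (GAAA and GAAA with 2 bases of any kind between them).
Cxcl1: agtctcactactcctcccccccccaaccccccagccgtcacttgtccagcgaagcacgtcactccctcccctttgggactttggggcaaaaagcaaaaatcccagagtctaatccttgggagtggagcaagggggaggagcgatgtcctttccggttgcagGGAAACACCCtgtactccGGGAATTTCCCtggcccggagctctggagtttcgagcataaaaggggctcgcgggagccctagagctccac
Cxcl2: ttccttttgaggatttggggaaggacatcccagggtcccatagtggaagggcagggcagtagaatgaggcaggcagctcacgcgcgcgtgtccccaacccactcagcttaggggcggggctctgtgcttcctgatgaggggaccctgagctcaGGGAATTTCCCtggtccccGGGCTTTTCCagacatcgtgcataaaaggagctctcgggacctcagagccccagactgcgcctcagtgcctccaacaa
Cxcl10: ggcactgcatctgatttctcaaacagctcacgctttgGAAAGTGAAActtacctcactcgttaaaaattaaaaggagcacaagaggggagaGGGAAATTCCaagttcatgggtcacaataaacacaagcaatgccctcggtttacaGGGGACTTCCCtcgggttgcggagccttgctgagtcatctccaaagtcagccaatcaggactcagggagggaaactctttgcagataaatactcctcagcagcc
Cxcl12: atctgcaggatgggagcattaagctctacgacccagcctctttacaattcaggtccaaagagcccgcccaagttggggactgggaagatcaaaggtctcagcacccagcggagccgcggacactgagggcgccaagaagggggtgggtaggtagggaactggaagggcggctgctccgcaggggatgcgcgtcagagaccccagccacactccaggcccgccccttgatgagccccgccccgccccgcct
Counting both strands and overlapping matches, the NF-kappaB form matched 3 times before Cxcl1, 3 times before Cxcl2, 4 times before Cxcl10 and at no place before Cxcl12. Both Cxcl1 and Cxcl2 held GGGAATTTCC, starting 71 bases before the start of Cxcl1 and 97 before that of Cxcl2. The interferon form matched before Cxcl10 at GAAAGTGAAA. Of 32851 windows of the same length before gene starts, 14.9% held the NF-kappaB form and 2.98% the interferon form. Of the other members with a sequence in the table, Cxcl9 and Cxcl13 held 1 match each to the NF-kappaB form, and Cxcl14 held 1 match to the interferon form. A match describes letters and not a bound site. Cxcl5 and Cxcl16 had no entry.

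The kept cells had medians of 8598.5 UMIs and 2691.5 genes in the THC library and 7122 UMIs and 2385.5 genes in the vehicle library, and the libraries summed to 4418882 and 5692678 UMIs. The mitochondrial limit removed 232 of 628 THC barcodes and 281 of 911 vehicle barcodes. No barcode was shared by the libraries. The vehicle table held only barcodes already called as cells, the lowest with 502 UMIs, while the THC table held all 737280 barcodes. Cells were grouped into clusters without the use of any CXC ligand or receptor gene. The clusters were named from canonical markers, apart from a shallow one left unnamed. The names carry the suffix -like because they were rebuilt here.

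Fibroblast-like cells numbered 98 in the THC library and 158 in the vehicle library, smooth muscle-like cells 43 and 53, macrophage-like cells 23 and 54, epithelial-like cells 82 and 106, and goblet-like cells 46 and 73. Smaller classes were B-like cells (37 and 72), T-like cells (23 and 31), lymphatic endothelial-like cells (13 and 25), cells like the interstitial cells of Cajal, the pacemakers of the gut muscle (11 and 10), pericyte-like cells (5 and 8), innate lymphoid-like cells (4 and 9) and blood endothelial-like cells (4 and 7). Plasma-like cells numbered 6 and 11, and 1 THC and 13 vehicle cells were in a cluster left unnamed. Levels are given as CPM, the standard scaling of a gene's UMIs to the total UMIs summed over the cells of a class, with exact Poisson 95% intervals in brackets. These intervals, and the exact binomial intervals of shares of cells, cover counting error only.

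The members differed in their main source. Cxcl1, Cxcl10 and Cxcl12 were highest, among the larger classes (20 cells or more per library), in fibroblast-like cells, Cxcl2 and Cxcl16 in macrophage-like cells, and Cxcl5 in epithelial-like cells. Cxcl14 was highest in the cells like interstitial cells of Cajal. Fibroblast-like cells held 86.7% of the Cxcl1 UMIs of the THC library and 88.5% of those of the vehicle library, 83.5% and 62.1% of the Cxcl10 UMIs, and 96.0% and 93.2% of the Cxcl12 UMIs. B-like cells stood in as a class that should lack these genes and had no UMI of Cxcl1, Cxcl2, Cxcl5, Cxcl9, Cxcl10, Cxcl12, Cxcl13 or Cxcl14 in either library, at median depths of 3106 and 3151 UMIs. A count of 0 in 37 THC and 72 vehicle B-like cells allows shares of up to 8.11% and 4.17% of cells with a UMI.

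**Figure D1:**
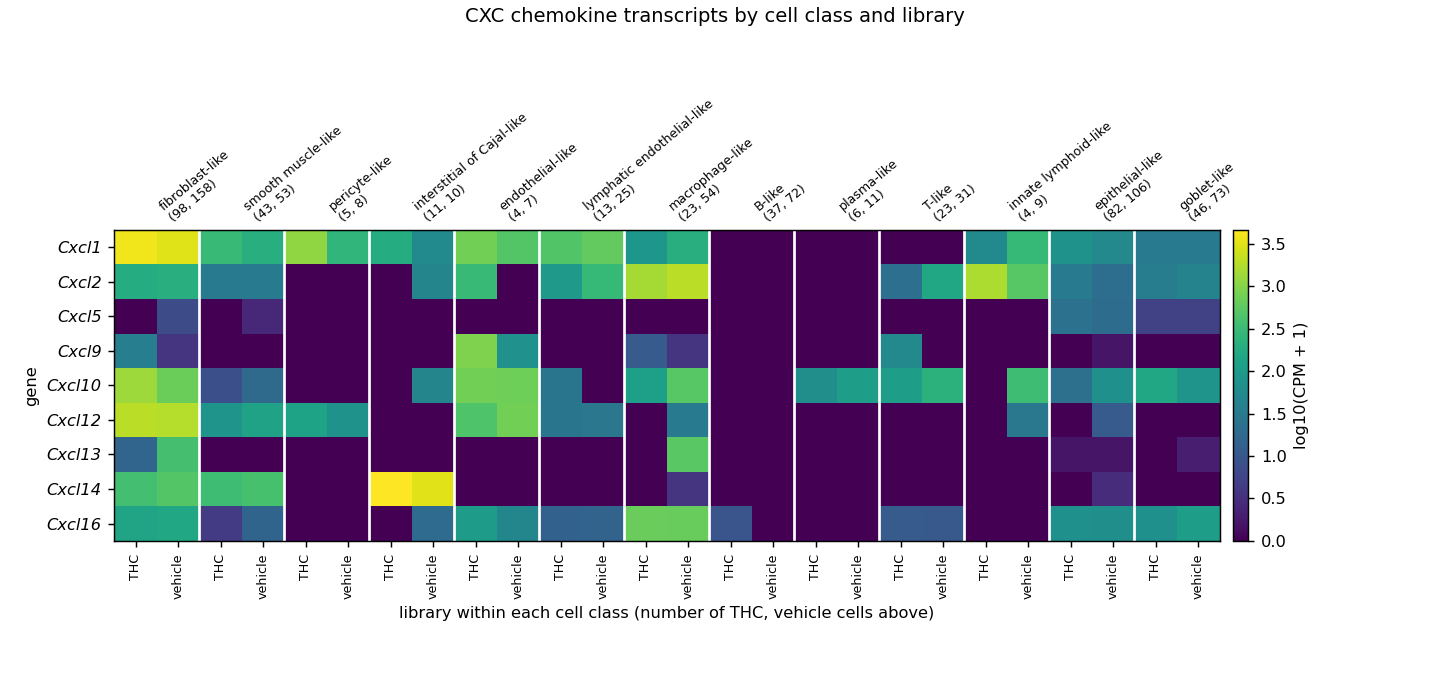
Level of each CXC chemokine, as log10(CPM + 1), in each cell class, with the THC library left of the vehicle library. Fibroblast-like cells are brightest for Cxcl1 (3816 and 3100 CPM) and Cxcl12, macrophage-like cells for Cxcl16 and, with 1 Cxcl2-rich THC cell of the innate lymphoid-like class beside them, for Cxcl2, the cells like interstitial cells of Cajal for Cxcl14 (4624 and 3142 CPM), and B-like cells are dark except for 1 Cxcl16 UMI.

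Over all kept cells, Cxcl9 was higher in the THC library and Cxcl13 lower, each by more than 2-fold, and the other 7 members lay within 2-fold. A gene was set against the 2-fold mark when it had at least 30 UMIs over both libraries, which all 9 members had. With 1 member higher and 1 lower, the background is that 1.09% of the 12401 genes that passed were at least 2-fold higher and 2.04% at least 2-fold lower. In fibroblast-like cells 8 of the 9 members passed the minimum, again with Cxcl9 higher and Cxcl13 lower, beside 1.8% of 6845 genes higher and 1.56% lower. In macrophage-like cells 5 members passed, of which Cxcl1, Cxcl10 and Cxcl13 were at least 2-fold lower, beside 2.49% of 2489 genes higher and 6.63% lower. In epithelial-like cells 5 passed and Cxcl10 was at least 2-fold lower, beside 1.1% of 8369 genes higher and 1.86% lower. None of the 4 members that passed in goblet-like cells, nor of the 4 in smooth muscle-like cells, reached 2-fold, and the backgrounds there were 1.48% higher and 1.18% lower, and 0.989% higher and 2.25% lower. No member passed in B-like cells (2.58% of genes higher, 6.49% lower), and in T-like cells Cxcl10 passed and lay within 2-fold (3.22% higher, 3.32% lower). In the smaller classes, where no share over all genes was computed, the log2 ratios past 2-fold with at least 30 UMIs were, for Cxcl1, those in pericyte-like cells (2.12, from 34 THC and 14 vehicle UMIs, with 25 in 1 THC cell) and in the cells like interstitial cells of Cajal (1.76, from 25 and 6, with 21 in 1 THC cell). For Cxcl2 they were 1.67 in innate lymphoid-like cells (30 and 18 UMIs, the 30 in 1 THC cell) and -1.67 in lymphatic endothelial-like cells (7 and 42, with 30 in 1 vehicle cell). The median log2 ratio over the members was 0.08 in all kept cells, against -0.01 over all genes that passed, and -0.02 in fibroblast-like cells, against 0.03. Because the choice of members drew on these same contrasts, nothing is read from the counts.

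**Figure D2:**
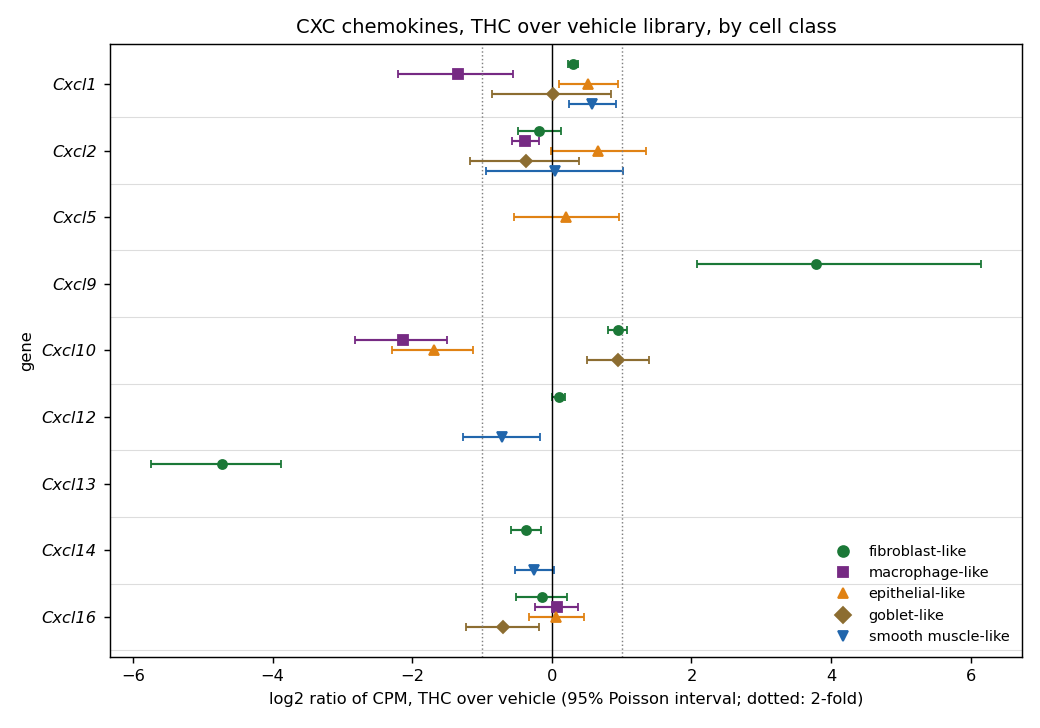
Log2 ratio of CPM, THC over vehicle library, of each CXC chemokine in the 5 largest non-lymphoid classes, for members with at least 30 UMIs over both libraries. Lines are exact 95% Poisson intervals and dotted lines mark 2-fold. Cxcl13 in macrophage-like cells passed the minimum but, with 0 THC and 213 vehicle UMIs, has no finite ratio and is not drawn. Cxcl9 (3.78) and Cxcl13 (-4.73) in fibroblast-like cells lie beyond the 2-fold lines, and Cxcl10 lies at 0.94 in fibroblast-like cells and at -2.13 in macrophage-like cells.

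Cxcl1 (ENSMUSG00000029380), a neutrophil attractant, was the most abundant member in both libraries. In fibroblast-like cells it had 2895 THC and 3599 vehicle UMIs, or 3816 CPM (3678 to 3957) and 3100 CPM (2999 to 3202). The THC library was 1.23-fold higher, a log2 ratio of 0.30 (0.23 to 0.37). Of these cells, 62 of 98 THC and 81 of 158 vehicle ones held a UMI, 63.3% and 51.3%, and 57.1% and 39.9% did once every cell was thinned to 1000 UMIs. The richest THC cell held 366 UMIs of Cxcl1 and the richest vehicle cell 533, and 12 THC and 14 vehicle cells held 50% of all Cxcl1 in their library. A few cells thus carried much of the transcript in both libraries. All of them were fibroblast-like apart from a smooth muscle-like THC cell with 96 UMIs.

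Within the fibroblast-like cells, Cxcl1 was highest in the adventitial-like cluster, whose Pi16 and Col14a1 mark fibroblasts around vessels and in the outer gut wall. There it reached 5737 CPM (1196 UMIs in 27 cells) in the THC library and 6258 CPM (2247 UMIs in 45 cells) in the vehicle library, with a log2 ratio of -0.13 (-0.23 to -0.02). The lamina propria-like cluster, marked by Adamdec1, had 3646 and 2045 CPM (0.83; 0.72 to 0.95). The subepithelial-like cluster, which holds the Bmp7 and Nrg1 marks of fibroblasts beneath the crypt epithelium, had 2113 and 408 CPM (2.37; 1.93 to 2.84). That last ratio rests on 13 THC and 20 vehicle cells, and 1 vehicle cell held 44 of the 51 vehicle UMIs. In a small cluster led by Ces1d, left unnamed as a subset, Cxcl1 was at 1789 and 1174 CPM. The order adventitial above lamina propria held in both libraries with intervals apart, while the subepithelial-like and Ces1d-led clusters had overlapping intervals in the THC library.

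**Figure D3:**
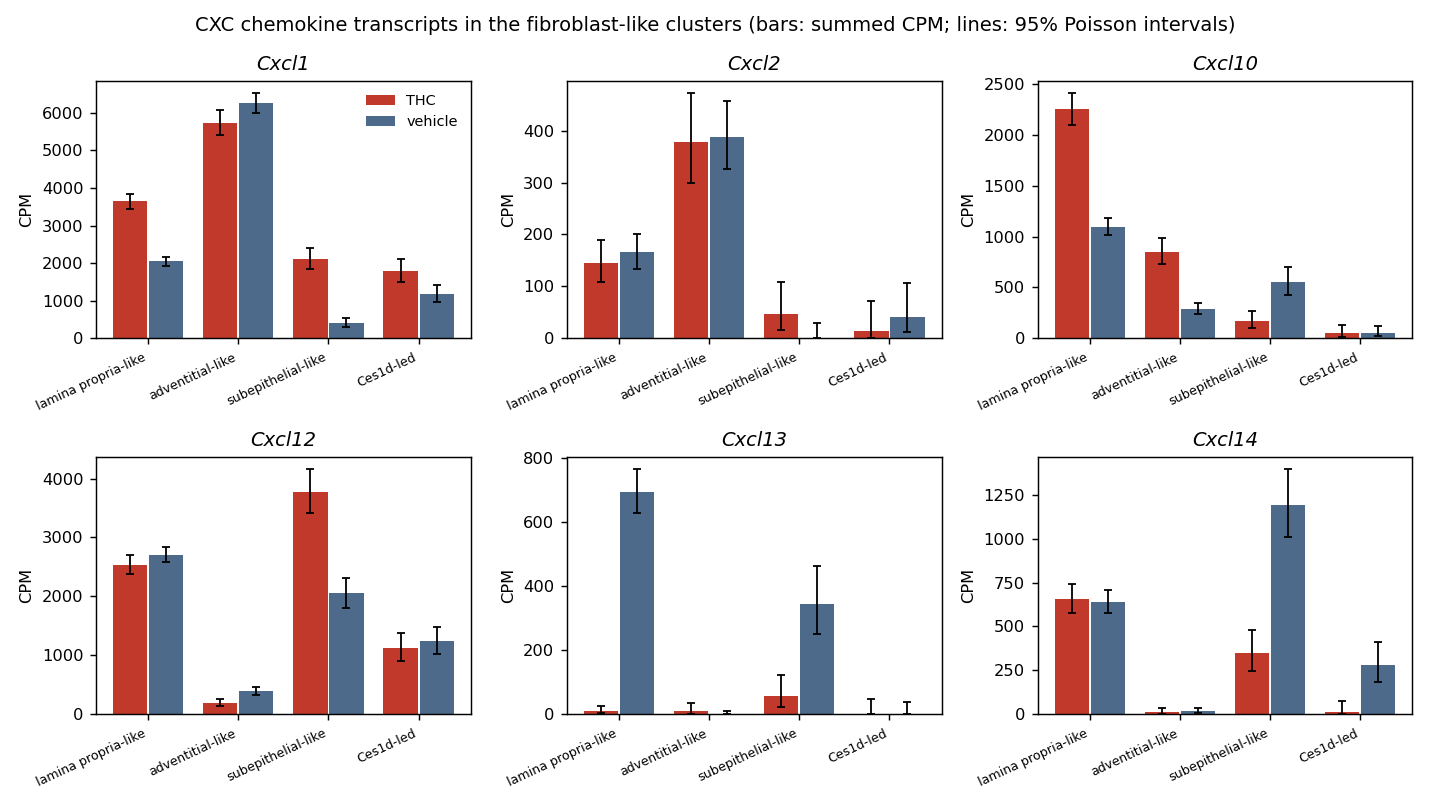
CPM of 6 CXC chemokines in the 4 fibroblast-like clusters, with THC bars left of vehicle bars and lines for exact 95% Poisson intervals. Cxcl1 and Cxcl2 stand highest in the adventitial-like cluster, Cxcl10 in the lamina propria-like cluster (2253 and 1098 CPM), and Cxcl12 is low in the adventitial-like cluster (182 and 382 CPM).

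Outside the fibroblasts Cxcl1 was lower. Pericyte-like cells had 1134 CPM (785 to 1584) in the THC library and 260 CPM (142 to 436) in the vehicle library, from 34 and 14 UMIs. Blood endothelial-like cells had 760 and 487 CPM, and lymphatic endothelial-like cells 466 and 609 CPM, and the intervals of neighbouring levels among these 3 classes overlapped in both libraries, while those of pericyte-like and lymphatic endothelial-like cells lay apart. Smooth muscle-like cells had 174 UMIs in the THC library and 126 in the vehicle library (log2 ratio 0.58; 0.24 to 0.92), of which 1 THC cell held 96. The ratio there was 0.16 when the richest cell of each library was left out, 2.15 and -0.38 at limits of 5% and 20% mitochondrial UMIs, and -0.55 without barcodes marked as doublets. Wherever the set of cells was altered, clustering and naming were repeated, so which cells made up a class moved as well, and without the marked doublets the smooth muscle-like cells held 78 THC and 126 vehicle UMIs. Macrophage-like cells had 16 and 83 UMIs (-1.34; -2.21 to -0.56), but 1 THC cell held 11 and 1 vehicle cell 51 of them, and the ratio was -2.68 in thinned cells. In epithelial-like cells Cxcl1 had 119 and 82 UMIs, 74.6 and 51.9 CPM, beside 83.2 CPM in THC barcodes of 1 to 100 UMIs, which hold free RNA. Such a value gives the make-up of the free RNA, and how much of it each cell took up was not measured. The richest THC epithelial-like cells held 31, 21, 14 and 11 Cxcl1 UMIs, and the richest vehicle ones 10, 8 and 7. With cells thinned to 1000 UMIs, 7.32% of THC and 3.77% of vehicle epithelial-like cells held Cxcl1.

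Cxcl2 (ENSMUSG00000058427), a neutrophil attractant best known from activated macrophages, was highest, among the larger classes, in macrophage-like cells. They held 290 UMIs, 1488 CPM (1321 to 1669), in the THC library and 773 UMIs, 1933 CPM (1799 to 2075), in the vehicle one, a ratio on the log2 scale of -0.38 (-0.58 to -0.18). The sign of that ratio turned to 0.39 when cells were limited to under 5% mitochondrial UMIs, where the class was formed anew with 18 THC and 35 vehicle cells. A UMI of Cxcl2 was found in 17 of 23 THC and 34 of 54 vehicle macrophage-like cells, 73.9% and 63.0%, and 60.9% and 38.9% after thinning. The richest THC cell held 70 UMIs and the richest vehicle cell 171. The class also held 3 THC and 8 vehicle cells with more UMIs of dendritic cell than of macrophage markers, in which Cxcl2 was at 258 and 332 CPM, against 1755 and 2269 CPM in the remaining cells.

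Fibroblast-like cells came well below the macrophage-like cells for Cxcl2, with 138 UMIs (182 CPM) in the THC library and 239 UMIs (206 CPM) in the vehicle one. The log2 ratio was -0.18 (-0.49 to 0.13), and 0.74 in thinned cells. The adventitial-like cluster led among them, with 379 and 387 CPM, above the lamina propria-like cluster at 145 and 165 CPM. Few cells carried these levels. In the adventitial-like cluster 1 THC cell held 47 of 79 Cxcl2 UMIs and 1 vehicle cell 37 of 139. In the lamina propria-like cluster 1 THC cell held 40 of 53 and 1 vehicle cell 29 of 96. In innate lymphoid-like cells, at 1623 and 509 CPM, 30 THC UMIs came from 1 of 4 cells, and 18 vehicle UMIs from 2 of 9 cells. Over all kept cells Cxcl2 was at 128 CPM in the THC library and 208 CPM in the vehicle library (log2 ratio -0.70; -0.85 to -0.55), and the ratio was -0.04 at a limit of 5% mitochondrial UMIs. Macrophage-like cells were 5.81% of THC and 8.57% of vehicle cells, and their part in that ratio was not tested.

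Cxcl5 (ENSMUSG00000029371), a neutrophil attractant known from epithelium, was rare and found mainly in an epithelial-like cluster. It had 38 UMIs in 14 THC cells and 42 UMIs in 14 vehicle cells. Of these, 35 THC and 28 vehicle UMIs fell in the cluster led by Muc3, Hoxb13, Ccl20 and Krt36, at 70.8 CPM (49.3 to 98.5) and 75.1 CPM (49.9 to 109). They came from 11 of 24 THC cells and 7 of 22 vehicle cells. The THC barcodes of 1 to 100 UMIs held no Cxcl5, which allows up to 3.67 CPM, and the log2 ratio in epithelial-like cells was 0.21 (-0.54 to 0.96), and -0.12 at a limit of 20% mitochondrial UMIs. Fibroblast-like cells held 0 THC and 7 vehicle UMIs.

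Cxcl9 (ENSMUSG00000029417), which interferon-gamma induces, was found in few cells, with 52 UMIs in 8 THC cells and 8 UMIs in 6 vehicle cells. The log2 ratio was 3.07 (1.98 to 4.35), an 8.37-fold higher level in the THC library. In fibroblast-like cells the THC library had 27 UMIs from 3 of 98 cells, the richest with 16, and the vehicle library had 3 UMIs from 3 of 158 cells, a log2 ratio of 3.78 (2.08 to 6.15), and of 3.07 without the richest cell of each. In blood endothelial-like cells 17 of 18 THC UMIs came from 1 cell, and the vehicle cells had 3. The 5 richest THC cells held 94.2% of the gene's UMIs in that library. The share of cells with a UMI was 2.02% (0.88 to 3.94) of THC and 0.95% (0.35 to 2.06) of vehicle cells, with overlapping intervals. The cell with 16 Cxcl9 UMIs, of the adventitial-like cluster, also held 73 UMIs of Cxcl10 and 94 of Cxcl1.

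Cxcl10 (ENSMUSG00000034855), induced by interferons and NF-kappaB, was higher in THC fibroblast-like cells and lower in THC macrophage-like and epithelial-like cells. Fibroblast-like cells had 1024 UMIs, 1350 CPM (1268 to 1435), in the THC library and 816 UMIs, 703 CPM (655 to 753), in the vehicle one. The log2 ratio was 0.94 (0.81 to 1.08), which at 1.92-fold lies just inside the 2-fold mark, and it was 1.22 both in thinned cells and at a limit of 5% mitochondrial UMIs. The shares of fibroblast-like cells with a UMI had overlapping intervals, with 36 of 98 THC cells (27.2% to 47.1%) and 60 of 158 vehicle cells (30.4% to 46.0%), and 27.6% and 22.8% after thinning. The 36 THC cells thus held more UMIs of Cxcl10 than the 60 vehicle cells. Over the whole library, 8 THC and 15 vehicle cells held 50% of the Cxcl10 UMIs.

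The lamina propria-like cluster led for Cxcl10, with 825 THC UMIs in 48 cells and 638 vehicle UMIs in 80 cells, 2253 and 1098 CPM (1.04; 0.89 to 1.19). The adventitial-like cluster had 849 and 290 CPM (1.55; 1.19 to 1.92), where 1 THC cell held 41.2% of the UMIs and 1 vehicle cell 40.4%. The subepithelial-like cluster went the other way, with 168 and 552 CPM (-1.71; -2.55 to -0.95), from 18 UMIs in 2 THC cells and 69 UMIs in 7 vehicle cells. In the Ces1d-led cluster it was near 52 CPM in both libraries, from 4 and 5 UMIs.

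In macrophage-like cells Cxcl10 had 23 THC and 207 vehicle UMIs, 118 and 518 CPM (-2.13; -2.82 to -1.51), while 26.1% of THC and 22.2% of vehicle cells held a UMI. The richest THC cell held 10 UMIs, and the 4 richest of the 54 vehicle cells held 61, 50, 44 and 33. The ratio was -1.40 in thinned cells. The 8 vehicle cells with more dendritic cell than macrophage marker UMIs held 44 UMIs of Cxcl10, 635 CPM, against 493 CPM in the rest. Most of those 44 UMIs were in 1 cell. The 3 such THC cells held 0, against 144 CPM in the rest. Epithelial-like cells had 34 and 109 UMIs, 21.3 and 69.0 CPM (-1.70; -2.30 to -1.13, and -1.06 with a lower minimum of UMIs per cell), beside 48.9 CPM in THC barcodes of 1 to 100 UMIs. Goblet-like cells had 105 and 75 UMIs (0.94; 0.50 to 1.39), nearly all in the cluster led by Zg16 and Mptx1, with 101 and 73, and the sign turned to -0.45 at a limit of 5% mitochondrial UMIs. T-like cells, read as a second background for this gene, held it in 2 of 23 THC and 3 of 31 vehicle cells. These were 11 and 23 UMIs, with up to 14 in 1 cell.

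Of 20 interferon-induced genes chosen with earlier results known, 15 passed the minimum in fibroblast-like cells, 14 with a positive log2 ratio and 3 at least 2-fold higher, and none at least 2-fold lower, beside 1.8% of 6845 genes higher and 1.56% lower. Their median log2 ratio was 0.74, against 0.03 over all genes that passed. The 3 were Ifit1 (29 THC and 7 vehicle UMIs), Ifit3 (53 and 22), both antiviral RNA-binding proteins, and Gbp2 (92 and 55), a guanylate-binding protein. The richest THC cell for each gene held 89.7% of the Ifit1 and 81.1% of the Ifit3 UMIs of that class. Irf1, a transcription factor of the interferon-gamma response, had 490 and 593 UMIs (0.34; 0.16 to 0.51). Over all kept cells the list's 20 genes had 10 positive and 10 negative ratios. In macrophage-like cells 5 passed, 1 positive and 4 negative, with a median of -0.19 against -0.03 over all genes that passed. The positive one, Rsad2 (33 and 21 UMIs, 1.69), was past 2-fold, beside 2.49% of 2489 genes higher and 6.63% lower. Of its THC UMIs there, 93.9% were in 1 cell. In epithelial-like cells 9 passed, 6 positive and 3 negative, with a median of 0.17 against 0.0005 over all genes that passed. Of these, 3 were at least 2-fold higher and none lower, beside 1.1% of 8369 genes higher and 1.86% lower. The log2 ratio of Cxcl10 in that class was -1.70. In goblet-like cells 4 passed, 3 positive and 1 negative, with a median of 0.22.

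Of 16 NF-kappaB targets, all passed the minimum in fibroblast-like cells, 7 with a positive and 9 with a negative log2 ratio. Their median was -0.09, against 0.03 over all genes that passed. Nfkbiz, a nuclear cofactor of NF-kappaB, had 220 and 208 UMIs (0.69; 0.41 to 0.98), and Nfkbia, its main inhibitor, 1743 and 2126 (0.33; 0.24 to 0.42). The only one past 2-fold in fibroblast-like cells was the monocyte attractant Ccl7, with 220 and 905 UMIs (-1.43; -1.65 to -1.21). The background there is 1.8% of 6845 genes at least 2-fold higher and 1.56% lower. In macrophage-like cells 14 passed, 4 positive and 10 negative, with a median of -0.38 against -0.03 over all genes that passed. Only Vcam1, with 29 and 208 UMIs (-1.81), was past 2-fold there, beside 2.49% of 2489 genes higher and 6.63% lower.

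Cxcl12 (ENSMUSG00000061353), the constitutive stromal ligand of Cxcr4, was found in most fibroblasts. Fibroblast-like cells had 1456 UMIs, 1919 CPM (1822 to 2020), in the THC library and 2085 UMIs, 1796 CPM (1719 to 1874), in the vehicle one. The log2 ratio of 0.10 (-0.00 to 0.19) had an interval that spans 0, and it was -0.19 in thinned cells. A UMI was held by 80 of 98 THC cells and 135 of 158 vehicle cells, 81.6% and 85.4%. The richest cell held 85 UMIs among THC cells and 50 among vehicle cells, and it took 16 and 31 cells to reach 50% of the total. Blood endothelial-like cells had 9 and 33 UMIs, 456 and 766 CPM, and smooth muscle-like cells 77.5 and 127 CPM.

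Cxcl12 was divided among the fibroblast-like clusters in another way than Cxcl1. The lamina propria-like cluster had 2535 and 2708 CPM (-0.10; -0.21 to 0.02), with a UMI in 46 of 48 THC and 79 of 80 vehicle cells. The subepithelial-like cluster had 3778 and 2048 CPM (0.88; 0.65 to 1.11), and so stood above the lamina propria-like cluster in the THC library and below it in the vehicle library. These levels rest on 13 THC and 20 vehicle cells, and 2 THC cells held 85 and 78 of the 404 THC UMIs. The order without those 2 cells was not tested. The adventitial-like cluster was lowest, at 182 and 382 CPM (-1.07; -1.62 to -0.54), from 38 and 137 UMIs.

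Cxcl13 (ENSMUSG00000023078), the B cell attractant of lymphoid follicles, showed the widest gap between the libraries, and a few vehicle cells carried most of it. It had 12 UMIs in 7 THC cells and 662 UMIs in 24 vehicle cells, 2.72 CPM (1.40 to 4.74) and 116 CPM (108 to 125), a log2 ratio of -5.42 (-6.38 to -4.61). In vehicle cells the 3 richest held 228, 213 and 123 UMIs, together 85.2% of that library's Cxcl13, while no THC cell held more than 4. Without these 3 cells, a choice made after the values were seen, the vehicle library had 98 UMIs and the log2 ratio was -2.67 (-3.67 to -1.80). In fibroblast-like cells it was -4.73 (-5.74 to -3.88) with and -2.53 (-3.58 to -1.62) without them, and -6.24 at a limit of 5% mitochondrial UMIs.

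The 3 cells carried more Clu and Mfge8 than any other cell outside the B-like class. The first, in the lamina propria-like cluster, held 331 UMIs of Clu and 127 of Mfge8 and 4 of Cr2, but 1 of Col1a1 and 0 of Adamdec1. The second, grouped with the macrophage-like cells, held 302 UMIs of Clu, 203 of Mfge8 and 16 of Cr2 beside 46 of C1qc and 96 of Lyz2. The third, in the lamina propria-like cluster, held 203 UMIs of Mfge8, 50 of Clu, 12 of Col1a1 and 22 of Dcn, with 0 of Cr2. Clu, Mfge8 and the complement receptor Cr2 are known from follicular dendritic cells, and these genes were looked at after the values were seen. No other cell outside the B-like class held a UMI of Cr2 in either library. Among those other cells the highest counts were 29 THC and 36 vehicle UMIs of Clu and 30 and 29 of Mfge8. None of the 3 was marked as a doublet, but only 1 barcode in each library was marked at all. Whether the second cell, with 14152 UMIs, was a droplet of mixed cells was not tested.

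**Figure D4:**
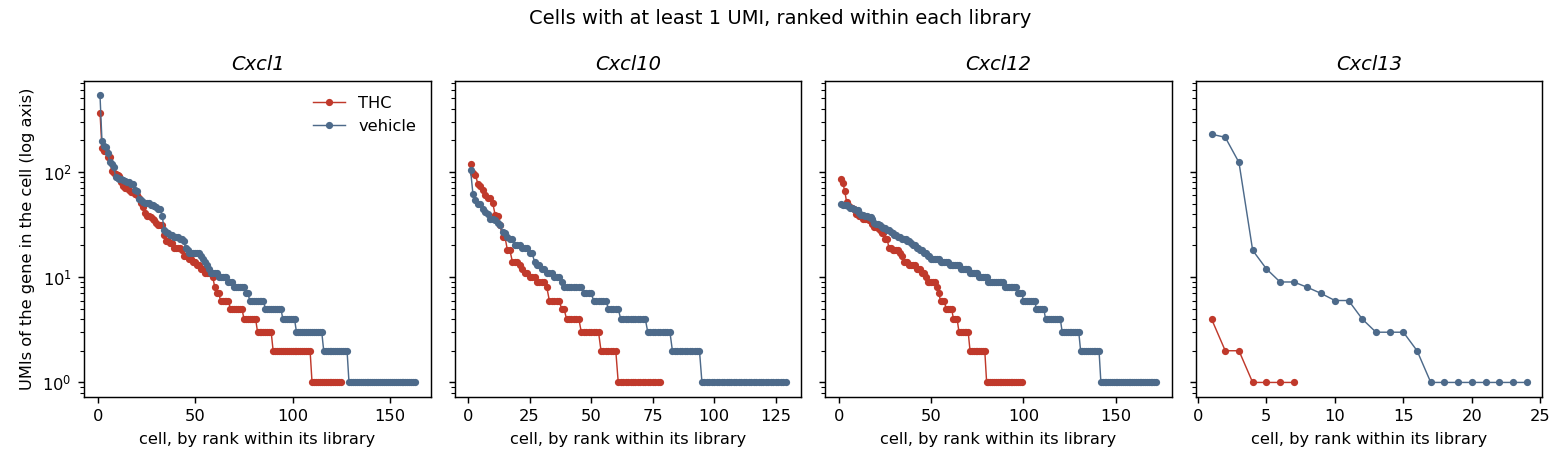
UMIs per cell (log axis) of Cxcl1, Cxcl10, Cxcl12 and Cxcl13 for the cells with at least 1 UMI, ranked within the THC and the vehicle library. Cxcl12 falls off gently over 99 THC and 172 vehicle cells, while Cxcl13 has 3 vehicle cells above 100 UMIs and no THC cell above 4.

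Apart from those cells, Cxcl13 was spread thinly over fibroblasts. The subepithelial-like cluster had 6 UMIs in 3 of 13 THC cells and 43 UMIs in 8 of 20 vehicle cells, 56.1 and 344 CPM (-2.62; -4.14 to -1.38). The lamina propria-like cluster had 3 UMIs in 2 THC cells and 404 in 13 vehicle cells, with 2 of the 3 rich cells among them. The adventitial-like cluster had 2 THC and 0 vehicle UMIs. In macrophage-like cells all 213 vehicle UMIs were those of the second rich cell, and the THC cells had 0, at least 34.6-fold lower against a floor of 3 UMIs in that library.

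Cxcl14 (ENSMUSG00000021508), a chemokine made constitutively by many epithelia and stroma, was here a gene of muscle and stroma. The cells like interstitial cells of Cajal led, with 630 UMIs in 9 of 11 THC cells and 348 UMIs in 7 of 10 vehicle cells, 4624 CPM (4270 to 5000) and 3142 CPM (2821 to 3490). The log2 ratio was 0.56 (0.37 to 0.75), and the richest cell of each library held 178 and 97 UMIs. Smooth muscle-like cells had 334 and 398 CPM (-0.25; -0.53 to 0.03), with a UMI in 16 of 43 THC and 30 of 53 vehicle cells, and the ratio was 0.51 under the coarser clustering and 0.64 in thinned cells. Epithelial-like cells had 0 THC and 3 vehicle UMIs, and goblet-like cells had none.

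Fibroblast-like cells had 280 UMIs of Cxcl14, 369 CPM, in the THC library and 554 UMIs, 477 CPM, in the vehicle library (-0.37; -0.58 to -0.16), and the ratio was 0.03 at a limit of 5% mitochondrial UMIs. The lamina propria-like cluster differed little, at 655 and 642 CPM (0.03; -0.21 to 0.27). The subepithelial-like cluster had 346 and 1192 CPM (-1.78; -2.35 to -1.26), from 37 UMIs in 9 THC cells and 149 UMIs in 11 vehicle cells, of which 1 cell held 60. The adventitial-like cluster nearly lacked the gene, with 2 and 5 UMIs.

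Cxcl16 (ENSMUSG00000018920), the membrane-bound ligand of Cxcr6, was the most widely detected member before thinning, with a UMI in 137 of 396 THC and 236 of 630 vehicle cells. In the lamina propria-like cluster its shares of cells, 58.3% and 57.5%, fell to 8.33% and 17.5% after thinning. Those of Cxcl1 there went from 60.4% and 48.8% to 54.2% and 37.5%. Macrophage-like cells led for Cxcl16, with 131 UMIs, 672 CPM (562 to 797), in the THC library and 256 UMIs, 640 CPM (564 to 724), in the vehicle one. The log2 ratio was 0.07 (-0.25 to 0.38), and it ranged over the alternatives down to -0.63. There 20 of 23 THC and 52 of 54 vehicle cells held a UMI, 87.0% and 96.3%, and 39.1% and 50.0% after thinning. The cells of this class with more dendritic cell than macrophage marker UMIs, 3 THC and 8 vehicle, had 1062 and 332 CPM. The remaining cells had 587 and 705 CPM. T-like cells, which should lack the gene, held it in 1 of 23 THC and 1 of 31 vehicle cells at median depths of 3336 and 3140 UMIs. Fibroblast-like cells had 136 and 150 CPM (-0.14; -0.51 to 0.22, and -1.63 in thinned cells, where 6 THC and 30 vehicle UMIs were left), led by the lamina propria-like cluster at 221 and 203 CPM. Epithelial-like cells had 68.9 and 65.9 CPM (0.07; -0.33 to 0.47), and goblet-like cells 67.9 and 110 CPM (-0.70; -1.23 to -0.19), beside 37.9 CPM in THC barcodes of 1 to 100 UMIs. Over all kept cells the log2 ratio was -0.36 (-0.55 to -0.18), and -1.06 in thinned cells.

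Some pairs of members were found in the same fibroblasts. Counting a member as present at 5 or more UMIs, all 7 THC and all 10 vehicle fibroblast-like cells with Cxcl2 also had Cxcl1, and 4 THC and 4 vehicle cells had both Cxcl2 and Cxcl10. Of cells with Cxcl10, 22 of 26 THC and 27 of 34 vehicle ones had Cxcl1, while 52 of 98 and 68 of 158 fibroblast-like cells had Cxcl1 in all. Of cells with Cxcl14, 14 of 18 THC and 28 of 35 vehicle cells had Cxcl12, while 57 of 98 and 104 of 158 fibroblast-like cells had Cxcl12 in all. At least 1 member was present in all but 17 THC and 21 vehicle fibroblast-like cells, and 3 THC and 5 vehicle cells had 5 members. The deeper a cell was sequenced, the more members could reach 5 UMIs, so these counts are a description.

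The receptors of these ligands were mostly on other classes. Cxcr5, which binds Cxcl13, had 29 UMIs in 16 of 37 THC and 44 UMIs in 28 of 72 vehicle B-like cells, 239 and 159 CPM. Cxcr4, which binds Cxcl12, had 34 and 135 UMIs in macrophage-like cells, 174 and 338 CPM, and 9 and 19 in B-like cells. Cxcr6, which binds Cxcl16, was on T-like cells (14 and 19 UMIs) and innate lymphoid-like cells (6 and 19). Cxcr3, which binds Cxcl9 and Cxcl10, had 2 THC and 10 vehicle UMIs, all in T-like cells. Cxcr2, which binds Cxcl1, Cxcl2 and Cxcl5, had 0 and 1 UMIs, and Cxcr1 had none, which allows a share of up to 0.758% of THC and 0.476% of vehicle cells with a UMI.

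Scavenging receptors were on stroma and vessels. Ackr3, which removes Cxcl12, was highest in lymphatic endothelial-like cells, with 698 CPM (54 UMIs) for THC and 540 CPM (79 UMIs) for vehicle cells, and had 152 and 277 UMIs in fibroblast-like cells. Ackr1, which binds inflammatory chemokines on venules, had 25 UMIs in 1 THC blood endothelial-like cell and 0 in the vehicle ones, and 15 and 15 UMIs in the adventitial-like cluster.

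**Figure D5:**
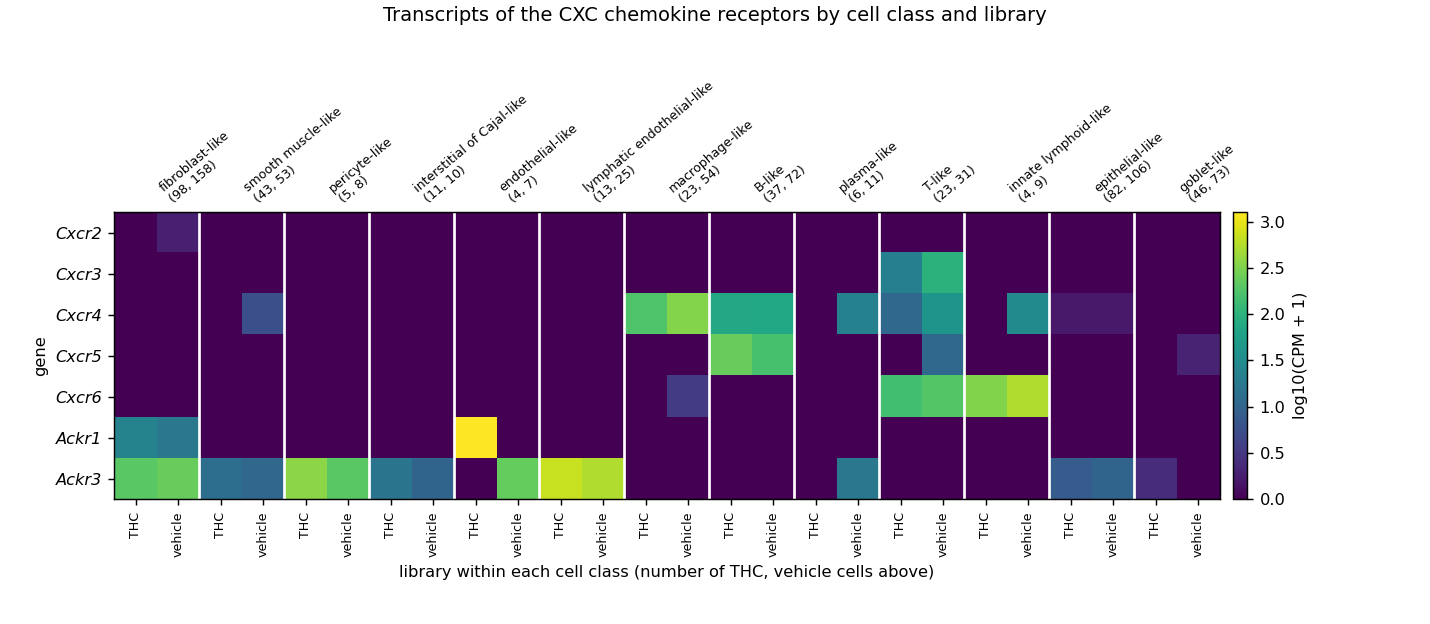
Level of the CXC chemokine receptors, as log10(CPM + 1), in each cell class, with the THC library left of the vehicle library. Cxcr5 stands in B-like cells (239 and 159 CPM), Cxcr4 mainly in macrophage-like cells (174 and 338 CPM), Cxcr6 in T-like and innate lymphoid-like cells, and Ackr3 in lymphatic endothelial-like cells (698 and 540 CPM).

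Of the CXC ligands outside the 9, Pf4, a platelet and macrophage chemokine, had 106 UMIs in THC and 340 in vehicle macrophage-like cells, 544 and 850 CPM. Cxcl3, a neutrophil attractant of the same run of genes as Cxcl1, had 49 and 43 UMIs there, 251 and 108 CPM, with up to 21 UMIs in 1 THC cell and 23 in 1 vehicle cell. Ppbp had 1 and 3 UMIs in all, Cxcl17 had 0 and 5, and Cxcl15 had none.

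The genes whose pattern across classes was most like that of each member were ranked by Pearson's r of log2(CPM + 10) over 14 points, the 7 classes with 20 cells or more per library taken once per library, among 9212 genes. The points share library and depth, so r is a description. Nearest to Cxcl1 were Lpar1, Ctsl and Tppp3 (r 0.98, 0.98 and 0.97), and nearest to Cxcl12 were Fbln7, Loxl1 and Serping1 (each over 0.99). Nearest to Cxcl14 were Gpx8, Aspn and Ddr2 (each over 0.99), over classes that leave out the cells like interstitial cells of Cajal, where it was highest, and nearest to Cxcl10 were Xdh, Ext1 and Ap3s1 (0.92, 0.90 and 0.88). Cxcl2 was most like Prdm1, Rab32 and Ccrl2 (0.95, 0.94 and 0.94), and Cxcl16 most like Ralgds, Cebpa and Nfe2l2 (0.97, 0.95 and 0.93). For the sparse members the nearest were Tnni1, Hspa9 and Hsd3b3 for Cxcl5 (0.96, 0.95 and 0.95), Ifi47, Ube2e3 and Stx11 for Cxcl9 (0.82, 0.81 and 0.79), and Gja4, Susd6 and Ccl8 for Cxcl13 (0.93, 0.87 and 0.86). All 213 vehicle macrophage-like UMIs behind the Cxcl13 pattern came from 1 cell.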

How the data were processed

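Single-cell RNA of mouse colon was measured in 1 THC and 1 vehicle library. The deposited tables hold raw counts of UMIs per gene and barcode, which the authors made with Cell Ranger 3.0.2, per the file headers. Per the submitters' processing notes, bcl2fastq and Seurat were also used, with no versions. Genes and barcodes stand in deposited tables that hold names and other text but no measured value. A genome build and annotation were not given in the sources used here.

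From the counts, barcodes with at least 1000 UMIs, 200 genes and under 10% mitochondrial UMIs were kept in both libraries. Cells were scaled, log-transformed and clustered together with scanpy 1.11.5 (2000 variable genes, 30 principal components, 15 neighbours, Leiden resolution 1), leaving out all CXC ligand and receptor genes, immunoglobulin, T cell receptor, mitochondrial, ribosomal protein, haemoglobin and sex-linked genes. This gave 21 clusters. A cluster took the class with at least 3 of its markers raised, but not where markers of another class outnumbered them among its leading genes. It also stayed unnamed where its cells had a median under 0.333 of their library's median UMIs and no marker of that class was among its leading genes. A fibroblast subset also needed a marker of its own among its leading genes. This scoring, and the counting of subset markers towards the fibroblast class, were written after the data had been seen, so that a class may differ from the authors'. Doublets were marked with scrublet at an expected 0.8% per 1000 cells, 1 in each library, and kept.

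UMIs were summed per class and library, with exact Poisson intervals for CPM, exact binomial (Clopper-Pearson) intervals for shares and exact conditional Poisson intervals for ratios, all at 95%. They leave out the variation between cells, mice and preparations, so they are too narrow where 1 cell holds many UMIs. No p-value was computed, since cells are not replicates. The calculation of ratios was tested on simulated counts. A limit for a count of 0 is 3 counts. Thinning drew 1000 UMIs from each cell, in 1 draw.

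The members, gene lists and markers were chosen with earlier results of these data known, and the motifs with the sequences in view. Named genes are the 9 members, members of the lists of CXC ligands, receptors, NF-kappaB targets and interferon-induced genes, and for each member the 3 genes with the highest Pearson's r, among genes with at least 100 UMIs. Cxcl11 was not analysed here. The alternatives tried were other minimums of UMIs, other mitochondrial limits, no doublets, a coarser clustering, another scaling, thinned cells, no richest cell, per-cell means and no minimum of UMIs per gene. Where an alternative altered the cells or the resolution, they were clustered and named again.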

Additional observations from a re-analysis of the deposited data

Results flagged for a closer look

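Cxcl1 and Cxcl10 went opposite ways between the libraries in different classes. Cxcl1 had a log2 ratio, THC over vehicle, of 0.30 in fibroblast-like, 0.58 in smooth muscle-like and 0.52 in epithelial-like cells, and of -1.34 in macrophage-like cells. Cxcl10 had 0.94 in fibroblast-like and 0.94 in goblet-like cells, and -2.13 in macrophage-like and -1.70 in epithelial-like cells. The sign of Cxcl1 in smooth muscle-like cells turned to -0.38 at a limit of 20% mitochondrial UMIs and to -0.55 without marked doublets, and that of Cxcl10 in goblet-like cells to -0.45 at a limit of 5%, each after the cells were clustered again. The epithelial-like levels of Cxcl1 were 74.6 CPM for THC and 51.9 CPM for vehicle cells, beside 83.2 CPM in THC barcodes of 1 to 100 UMIs. That last value is the make-up of free RNA and not the level it adds to a cell, which was not measured. The richest THC epithelial-like cells held 31 and 21 of the 119 UMIs. With 1 library per group, the difference between classes was not tested.

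In the barcodes left out for 10% or more mitochondrial UMIs, 232 THC and 281 vehicle barcodes, Cxcl14 had 68 and 44 UMIs, 39.0 and 21.7 CPM, a log2 ratio of 0.85 (0.28 to 1.43). One THC barcode held 49 of the 68 UMIs.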

How the results depend on the processing

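The number of members at least 2-fold higher in fibroblast-like cells was 1 and became 2 at a limit of 5% mitochondrial UMIs and 2 in thinned cells, where Cxcl10 joined Cxcl9. The number at least 2-fold lower there was 1 and became 2 in thinned cells, where Cxcl16 joined Cxcl13, and 2 with no minimum of UMIs per gene, where Cxcl5, at 0 THC and 7 vehicle UMIs, is counted for its 0 alone: against a floor of 3 THC UMIs it was at least 1.52-fold lower, short of 2-fold. Over all kept cells the number lower was 1 and became 3 in thinned cells, where Cxcl16 joined Cxcl13 and Cxcl5 is counted for a THC count of 0, with 3 vehicle cells that held a UMI, so that no fold can be given for it. The causes were not tested. Of 418 alternative values of 44 log2 ratios, 350 stayed within the interval of the value reported and 68 moved beyond it. Only finite values were counted, and among these none of the ratios past 2-fold changed sign. The count leaves out Cxcl2 in innate lymphoid-like cells (1.67) without the richest cell of each library. All 30 of its THC UMIs were in 1 cell, so there the gene is left in vehicle cells only, a turn of sign. Some ratios within 2-fold also changed sign.

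No paired analysis was possible because each group has 1 library. For the same reason no library was left out. Classes of under 20 cells per library and members of under 30 UMIs have wide intervals, and free RNA was measured in the THC library alone, since the vehicle table holds no barcodes of low count.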

Other observations

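In the same barcodes of 10% or more mitochondrial UMIs, Cxcl16 had 151 THC and 158 vehicle UMIs, 86.7 and 77.8 CPM, and Cxcl12 had 2 and 4. Cxcl5 had 12 and 34 UMIs, 6.89 and 16.7 CPM (log2 ratio -1.28; -2.36 to -0.29). Cxcl1 had 67 and 63 UMIs (0.31; -0.21 to 0.83), and Cxcl10 had 55 and 93 (-0.54; -1.04 to -0.04).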
